A study of Mus musculus with 12 samples.

Results

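The sites described here are CCCGGG sites of the mouse genome that carried little methylation in control colonic adenomas and lay among few other sites of the same sequence. A site was taken when it was autosomal, had at least 100 reads in 11 of the 12 adenomas, had a mean adjusted methylation level below 5% over the 3 control adenomas, and had 1 or 2 other listed CCCGGG sites within 500 bp. These criteria gave 7548 sites, out of 173449 listed and 16868 autosomal sites that met the depth minimum. The control values therefore chose the sites, and a low level in control is part of the choice and not a finding. All positions are in the mouse build mm9. Genes were not assigned to the sites, because the gene table used here is of another build.

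Cytosine methylation at CpG dinucleotides is copied at each cell division and can be removed by active demethylation. In that pathway Tet1 oxidises 5-methylcytosine, and the glycosylase Tdg cuts out the more oxidised bases so that repair can put in an unmethylated cytosine. CpG-rich stretches, many of them at promoters, are usually unmethylated in normal tissue and can gain methylation in intestinal tumours. Apc is the tumour suppressor whose Min mutation starts intestinal adenomas in mice.

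All 12 adenomas came from C57BL/6J mice that carried Apc Min/+ and were killed at 150 to 160 days, so the control group carries the Apc mutation as well. There were 3 adenomas in each of 4 genotypes. Control adenomas were wild type at both other loci. Tet1 null adenomas were Tet1-/- Tdg+/+. Tdg heterozygous adenomas were Tet1+/+ TdgN151A/+, with 1 allele of Tdg mutated in the catalytic site. Double heterozygous adenomas were Tet1+/- TdgN151A/+. No genotype with both Tdg alleles mutated, and no Tet1 heterozygote with wild-type Tdg, is analysed here. Whether the adenomas of a genotype are from different animals is not stated in the labels, and each p-value here reflects only the variation among the adenomas sampled. In DNA from a whole adenoma, a level of 20% in every cell cannot be told apart from full methylation in a fraction of the cells or alleles.

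Methylation was measured by digital restriction enzyme analysis. DNA was cut with SmaI, which cuts only unmethylated CCCGGG, and then with XmaI, which cuts the rest, so the first bases of a read tell which state the site had. The level is the percentage of methylated reads, adjusted by the authors with spiked standards. Library totals ranged from 2349576 to 18865833 reads, and the median depth at the sites described here from 421 to 977 reads in 11 adenomas. The exception was double heterozygous adenoma 3, with a median of 111 reads and fewer than 100 reads at 3338 of the 7548 sites. That adenoma is shown but did not enter the tests, which hold 2 double heterozygous adenomas and 3 of each other genotype, and means of that genotype at single sites are over adenomas 1 and 2. The unmethylated standards read 0.08 to 1.84% over the 12 libraries, and 0.08 to 0.65% in the Tdg heterozygous and 0.38 to 1.47% in the control libraries. By Y chromosome reads all double heterozygous adenomas were from male mice, as were control adenoma 1, Tet1 null adenomas 1 and 2 and Tdg heterozygous adenoma 2.

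Of the 7548 sites, 4684 had 1 neighbour and 2864 had 2. The distance to the nearest listed site had a median of 250.5 bp, with quartiles of 180 and 348 bp. The 19 autosomes held between 230 and 669 of the sites each. Most of the sites were close to 0 in control: 3120 had a control mean of exactly 0, and 1251 had no methylated read in any of the 11 adenomas. Depth depended strongly on neighbours. Only 0.152% of the 116728 autosomal sites with no neighbour within 500 bp reached the depth minimum. The share was 47.3% with 1 neighbour, 40.6% with 2 and 16.4% with 3 or more, so it did not rise steadily with neighbours. Among sites that reached it, a control mean below 5% was found at 45.8% with 1 neighbour, 81.1% with 2 and 94.6% with 3 or more. Sites with 1 neighbour were thus the only ones of these classes of which the larger part was at 5% or more in control.

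The limit of 5% cuts a continuous range. Just inside it were chr15:72377529, with a control mean of 4.997%, chr14:63593843, also at 4.997%, chr11:94361819 at 4.98% and chr12:3808804 at 4.97%. In Tet1 null adenomas these 4 sites had means of 23.9%, 14.7%, 8.59% and 5.87%. Just outside it were chr18:58369726 at 5.05%, chr8:9770582 at 5.06%, chr11:80966459 at 5.07% and chr2:34838760 at 5.08%, with Tet1 null means of 3.35%, 6.69%, 3.94% and 6.24%.

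The sites stayed mostly unmethylated in every genotype, and the Tet1 null adenomas had the highest level. Averaged over the 7548 sites, the level of control adenomas 1, 2 and 3 was 0.395%, 0.438% and 0.419%. Tdg heterozygous adenomas averaged 0.470%, 0.496% and 0.482%, double heterozygous adenomas 0.581%, 0.501% and 0.551%, and Tet1 null adenomas 0.777%, 1.003% and 0.987%. The lowest Tet1 null adenoma lay above the highest of the 9 others, and the double heterozygous lay above the Tdg heterozygous adenomas by a smaller step. The genotype means were 0.417% ± 0.0216 (SD, n = 3) in control, 0.483% ± 0.0130 (n = 3) in Tdg heterozygous, 0.544% ± 0.0402 (n = 3) in double heterozygous and 0.922% ± 0.126 (n = 3) in Tet1 null adenomas. Without the shallow adenoma 3 the double heterozygous mean was 0.541% ± 0.0563 (n = 2). The differences among the first 3 genotypes are smaller than the range of the unmethylated standards, and the part of the standards in them was not tested. In Tet1 null adenomas 1, 2 and 3 the unmethylated standards read 1.11 and 1.41%, 0.65 and 1.02%, and 0.19 and 0.09%. In double heterozygous adenomas 1, 2 and 3 they read 1.18 and 1.84%, 0.73 and 0.97%, and 0.61 and 0.77%. The part of the standards in the Tet1 null levels was not tested either.

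The higher mean of the Tet1 null adenomas showed in the upper part of the distribution, while the lower part lay at the floor of 0, where no shift could be seen. The median level of the sites was 0 in every adenoma except Tet1 null adenoma 2, where it was 0.06%. The level that 90% of the sites did not exceed was 1.86%, 2.59% and 2.75% in Tet1 null adenomas and 1.47%, 1.41% and 1.5% in Tdg heterozygous adenomas. At a level of 5% or more stood 253, 424 and 408 sites in the Tet1 null adenomas, 205, 126 and 220 in the double heterozygous, 103, 102 and 120 in the Tdg heterozygous, and 68, 65 and 66 in the control adenomas. At 15% or more stood 48, 65 and 61 sites in the Tet1 null adenomas, 5, 16 and 12 in the double heterozygous, 5, 19 and 2 in the Tdg heterozygous, and none in the control adenomas, where the choice of the sites keeps this number low. The Tet1 null share at 15% or more was 0.768% ± 0.118 (SD, n = 3), and the shares of 0.146% ± 0.0738 (n = 3) in double heterozygous and 0.115% ± 0.120 (n = 3) in Tdg heterozygous adenomas overlapped.

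**Figure D1:**
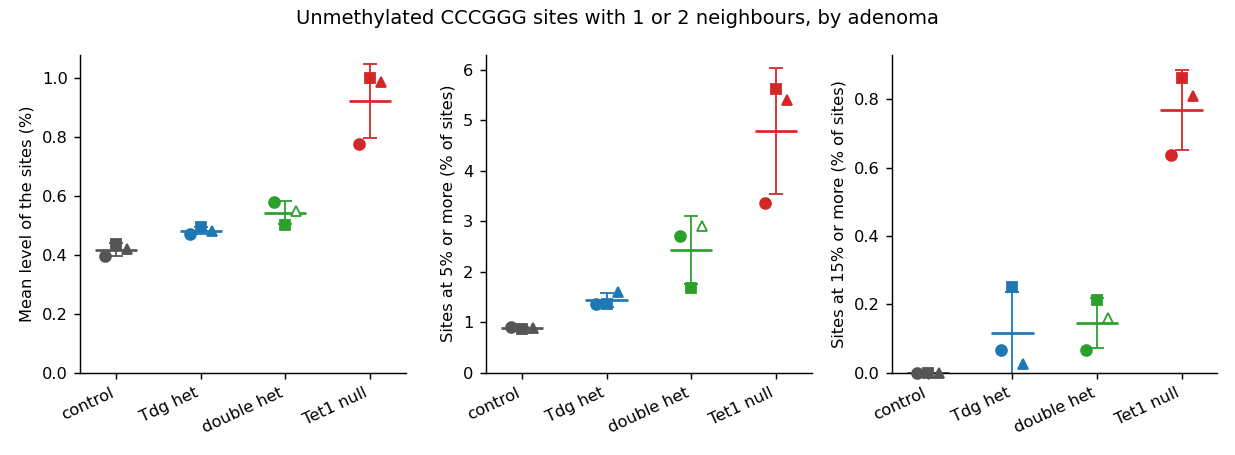
Mean adjusted methylation level (left, %), share of the 7548 sites at 5% or more (middle, %) and share at 15% or more (right, %) in each adenoma, by genotype. Circles, squares and triangles are adenomas 1, 2 and 3, horizontal lines are genotype means over 3 adenomas, bars are SD (cut off at 0 for the Tdg heterozygous adenomas on the right), and the open symbol is the shallow double heterozygous adenoma 3. The 3 Tet1 null adenomas lie above the other 9 in each panel.

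Because all 3 controls took part in the choice, each control was also left out of it in turn, with the sites chosen on the other 2. The left-out control could then be read in the same way as the mutants. The share of sites at 15% or more was 0.115% ± 0.0751 (SD, n = 3) in the left-out controls, 0.123% ± 0.123 (n = 3) in Tdg heterozygous, 0.159% ± 0.0509 (n = 3) in double heterozygous and 0.789% ± 0.117 (n = 3) in Tet1 null adenomas. At this limit the left-out controls overlapped both heterozygous genotypes. At a limit of 10% they did not overlap the double heterozygous adenomas, with 0.410%, 0.146% and 0.265% against 0.719%, 0.578% and 0.547%. At the limit of 15% the single left-out controls gave 0.198%, 0.0529% and 0.0927%, and the Tet1 null adenomas 0.662%, 0.891% and 0.816%, with no overlap. The mean level was 0.478% ± 0.0120 in left-out controls, 0.493% ± 0.0104 in Tdg heterozygous, 0.556% ± 0.0419 in double heterozygous and 0.940% ± 0.128 in Tet1 null adenomas (n = 3 each). All 3 double heterozygous adenomas, at 0.598%, 0.514% and 0.557%, lay above the left-out controls, at 0.489%, 0.481% and 0.465%.

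Tet1 null and Tdg heterozygous adenomas took no part in the choice, and the comparison between them is a test. It asks how adenomas without Tet1 differ at these sites from adenomas with 1 mutated Tdg allele and intact Tet1. Of the 7548 sites, 6297 had reads of both states and were tested. The model was the quasi-likelihood test of edgeR, applied to the reads of both states, fitted and Benjamini-Hochberg adjusted over all 14983 testable autosomal sites, with a threshold of 0.05 on the adjusted p. It called 140 sites higher in Tet1 null adenomas, 2.22% of those tested, against 1.78% of all tested sites. None was called lower, and none of all tested sites was (0% of them). At an unadjusted p under 0.05 edgeR found 584 of the 6297 sites higher and 32 lower. Over all 14983 tested sites it found 1113 higher and 73 lower. With limma 0 were called lower at its adjusted threshold. In 131 of the 140 sites the 3 Tet1 null values all lay above the 3 Tdg heterozygous values. Counted without a model, 646 of the tested sites were separated in this way with Tet1 null higher, 10.3% against 8.33% of all tested sites, and 59 with Tet1 null lower, 0.937% against 1.82%.

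The 140 sites rose from low to modest levels. Their median mean level was 0.960% in Tdg heterozygous and 7.94% in Tet1 null adenomas, and the median rise was 6.63 percentage points with quartiles of 3.69 and 13.2. It reached 5 points or more at 91 sites, 10 or more at 46 and 20 or more at 17. Over all 6297 tested sites of the class the median difference was 0.0333 points, and over all 14983 tested sites it was 0.0467 points. Without Tet1 null adenoma 3 the count of 140 fell to 84, without Tdg heterozygous adenoma 1 to 88 and without Tdg heterozygous adenoma 2 to 90, all higher in Tet1 null adenomas.

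**Figure D2:**
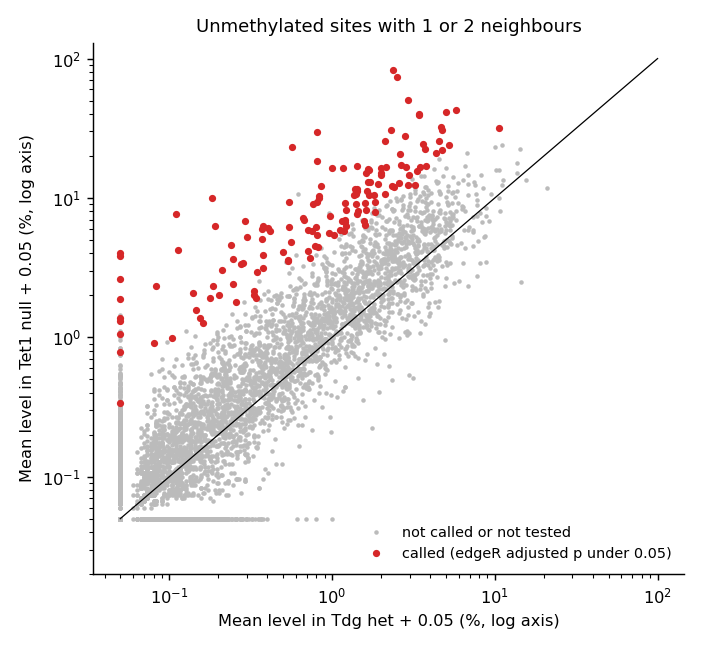
Mean adjusted level of each of the 7548 sites in Tdg heterozygous (horizontal) and Tet1 null adenomas (vertical), in %, with 0.05 added and both axes logarithmic. Each point is a site and a mean over 3 adenomas, the line marks equal levels, and red points are the 140 sites called higher in Tet1 null adenomas, with none called below the line.

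The 12 sites named next had the largest differences among called sites without overlap between these genotypes. The largest was at a pair of sites on chromosome 16 that lie 155 bp apart. At chr16:35660659 the level was 95.56%, 65.09% and 88.30% in the Tet1 null adenomas, 2.92%, 1.16% and 2.83% in the Tdg heterozygous, 10.79% and 6.88% in double heterozygous adenomas 1 and 2, and 8.34%, 3.40% and 1.08% in control. It was read 111 to 282 times in the 11 adenomas, and double heterozygous adenoma 3 had no methylated read among 13. The Tet1 null mean of 83.0% ± 15.9 (SD, n = 3) exceeded the Tdg heterozygous mean of 2.30% ± 0.991 (n = 3) by 80.7 points (edgeR adjusted p = 3.36e-20). At chr16:35660504, read 450 to 1452 times, the Tet1 null values were 91.23%, 54.69% and 74.10% and the Tdg heterozygous values 1.98%, 1.57% and 3.80%, a difference of 70.9 points (edgeR adjusted p = 5.34e-20). At both sites more reads were methylated than not in each Tet1 null adenoma, while none of the other adenomas exceeded 10.79%.

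Chromosome 14 held 3 of the 5 largest differences. At chr14:109311177 the Tet1 null adenomas had 80%, 39.00% and 31.32%, the Tdg heterozygous 4.27%, 2.96% and 1.44%, and control 2.72%, 2.69% and 2.73% (difference 47.2 points, edgeR adjusted p = 7.87e-11). Its neighbour at chr14:109311469 had 78.65%, 33.67% and 12.36% in the Tet1 null adenomas and 5.85%, 6.89% and 2.14% in the Tdg heterozygous (36.6 points, edgeR adjusted p = 2.48e-05). Tet1 null adenoma 1 was thus far above the other two at both sites. At chr14:75856491 adenoma 2 was the highest instead, the Tet1 null values being 34.10%, 64.49% and 30.05% and the Tdg heterozygous values 12.61%, 2.32% and 2.16% (37.2 points, edgeR adjusted p = 4.72e-07).

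Chromosome 8 held a further 2 of the 12 largest differences. At chr8:114433829 the Tet1 null values were 27.36%, 39.76% and 52.83%, and the Tdg heterozygous values 2.10%, 2.58% and 5.50% (36.6 points, edgeR adjusted p = 5.73e-06, 109 to 225 reads). At chr8:112701496 the Tet1 null values were 27.26%, 47.82% and 43.21%, and the Tdg heterozygous 2.20%, 4.22% and 3.76% (36.04 points, edgeR adjusted p = 8.32e-08). Here the double heterozygous adenomas 1 and 2 lay in between, at 6.74% and 21.92%, above the control values of 3.61%, 3.20% and 1.56%.

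The lowest background among the 12 was at chr11:113927258. Control had 1.19%, 0.68% and 0.56%, Tdg heterozygous 0.58%, 1.25% and 0.43%, and double heterozygous adenomas 1 and 2 had 1.75% and 0.47%, while the Tet1 null adenomas had 33.20%, 23.71% and 32.58% (29.1 points over Tdg heterozygous, edgeR adjusted p = 1.48e-13). The 3 Tet1 null values were close to each other. They were also close at chr3:81949021, with 32.65%, 21.91% and 28.44% against 2.29%, 2.71% and 3.28% in Tdg heterozygous adenomas (24.9 points, edgeR adjusted p = 2.64e-06). They were spread widely at chr6:3714674, with 49.91%, 13.43% and 28.93% against 1.72%, 2.42% and 2.66% (28.5 points, edgeR adjusted p = 4.72e-07).

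The remaining sites of the 12 were chr2:25434634 and chr7:86738373. At chr2:25434634 the Tet1 null values were 42.64%, 27.22% and 26.20% against 5.09%, 2.77% and 5.97% in the Tdg heterozygous (27.4 points, edgeR adjusted p = 5.28e-05). At chr7:86738373 they were 13.13%, 36.70% and 41.87% against 5.12%, 2.92% and 6.03% (25.9 points, edgeR adjusted p = 3.33e-04). Double heterozygous adenoma 2 stood at 21.87% there, above the lowest Tet1 null adenoma. Without Tet1 null adenoma 3 the edgeR adjusted p of chr7:86738373 was 0.0541, which no longer passed.

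**Figure D3:**
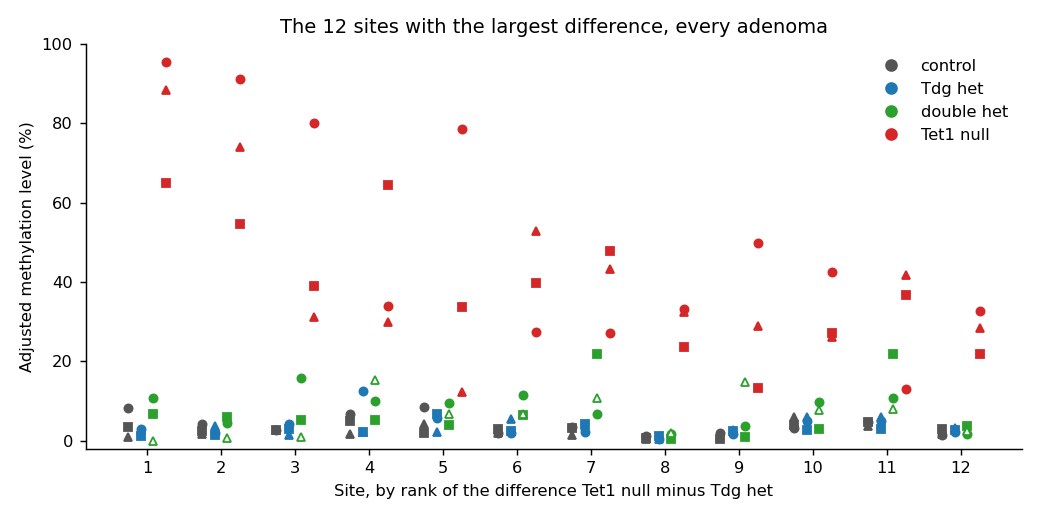
Adjusted methylation level (%) in every adenoma at the 12 sites with the largest difference between Tet1 null and Tdg heterozygous adenomas among called sites where those values did not overlap, in order of that difference from 80.7 to 24.9 points. Circles, squares and triangles are adenomas 1, 2 and 3, and open symbols are the shallow double heterozygous adenoma 3. The 3 Tet1 null values also lie above the control values at each site, and their order among themselves changes from site to site.

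No site passed the test in the other direction. The 5 lower sites with the smallest p were chr7:139767331 (edgeR adjusted p = 0.115), chr7:77514977 (0.166), chr13:73605205 (0.198), chr8:91567388 (0.237) and chr9:62985729 (0.256). At chr7:139767331 the 3 Tet1 null adenomas had 0%, and the Tdg heterozygous had 0.68%, 0.81% and 0.74%, from 3 or 4 methylated reads each. At chr7:77514977 Tdg heterozygous adenoma 3 alone was high, at 7.21% against 1.26% and 0.85% in the other Tdg heterozygous adenomas and 0.40%, 0.70% and 0.28% in the Tet1 null. A fall has little room at such sites, since the control mean was chosen to be under 5%.

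The called sites were shared by the Tet1 null adenomas to different degrees. At the 140 sites the median level was 6.74%, 8.55% and 7.41% in Tet1 null adenomas 1, 2 and 3. These adenomas took part in the call, which favours high values in all of them. Without adenoma 1, 2 or 3 the count of called sites was 147, 100 or 84. Adenoma 1 was the highest of the 3 at 35 sites, adenoma 2 at 61 and adenoma 3 at 44. All 3 reached 5% at 67 sites, 2 of them at 28, 1 at 17 and none at 28. The highest value was at most 2 times the lowest at 56 sites and at least 3 times the lowest at 49. Only 3 sites had a Tet1 null mean of 50% or more, 19 lay from 20 to 50%, 77 from 5 to 20% and 41 below 5%.

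At the same 140 sites the other genotypes stayed near each other. Control adenomas had medians of 1.19%, 0.995% and 0.960%, Tdg heterozygous adenomas 0.875%, 0.735% and 1.05%, and double heterozygous adenomas 1.79%, 1.23% and 1.09%. The double heterozygous mean was above the control mean at 100 sites and below it at 34, and the Tdg heterozygous mean was above the control mean at 56. Control was chosen to be low at these sites, which favours other genotypes lying above it. The matching counts over all tested sites were not taken, so no rise is read from these numbers. Between double heterozygous adenomas and control edgeR called 0 sites of the class. The Tdg heterozygous values helped to call these sites, and a low value there is favoured by the call. The lowest Tet1 null value lay above all 3 controls at 121 sites, an outcome that the call for high Tet1 null values also favours. Over all 6297 tested sites of the class it did so at 750 (11.9%, against 11.1% of all tested sites).

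Tet1 null adenomas were also higher than double heterozygous adenomas, at fewer sites. The comparison asks how full loss of Tet1 differs from loss of 1 Tet1 allele together with 1 mutated Tdg allele. edgeR called 60 of the 6297 tested sites higher in Tet1 null adenomas (0.953%, against 0.641% of all tested sites) and 1 lower (0.0159%, against 0.00667%). At an unadjusted p under 0.05 it found 367 higher and 40 lower, beside 628 and 77 of all 14983 tested sites. The 60 rose from a median of 1.28% to 11.5%, by a median of 10.1 points with quartiles of 5.67 and 15.9. The values were separated, with Tet1 null higher, at 674 tested sites (10.7%, against 8.89% of all tested sites), and with Tet1 null lower at 148 (2.35%, against 4.63%). The double heterozygous group has 2 adenomas in this test, so values separate more easily than between groups of 3. The separated shares therefore cannot be set beside those of the Tdg heterozygous comparison. The count of called sites rested on single libraries and settings. It was 16 without double heterozygous adenoma 2, 34 without Tet1 null adenoma 3, 38 with sex, read from Y chromosome reads, as a covariate, and 31 with limma, all of them higher in Tet1 null adenomas.

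Of the 12 largest differences from double heterozygous adenomas, taken among called sites whose values did not overlap, 9 were among the 12 named above. The pair on chromosome 16 led again, with 74.1 points at chr16:35660659 (edgeR adjusted p = 1.83e-09) and 68.1 points at chr16:35660504 (edgeR adjusted p = 1.89e-10). At chr11:113927258 the difference was 28.7 points (edgeR adjusted p = 1.91e-08), and at chr3:81949021 it was 24.9 points (edgeR adjusted p = 1.37e-04). At chr14:109311177 it was 39.5 points (edgeR adjusted p = 4.51e-03), with an edgeR adjusted p of 0.205 without Tet1 null adenoma 1. The others in common were chr14:75856491 (35.2 points), chr14:109311469 (34.8), chr6:3714674 (28.4) and chr2:25434634 (25.7).

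The 3 further sites differed in what the Tdg heterozygous adenomas showed. At chr1:40847261 Tet1 null adenomas 1 and 3 had 32.23% and 33.52% and adenoma 2 only 3.87%, against 1.19% and 0% in double heterozygous adenomas 1 and 2 (22.6 points, edgeR adjusted p = 1.68e-06). Control adenoma 2 stood at 7.06% there, above that Tet1 null adenoma. At chr1:121316246 the Tet1 null adenomas had 33.58%, 22.61% and 20.82%, the double heterozygous 2.68% and 4.69%, and the Tdg heterozygous 2.01%, 2.23% and 1.99% (22.0 points, edgeR adjusted p = 4.09e-03). At chr6:102513773 the Tet1 null adenomas had 24.96%, 25.97% and 43.87% and the double heterozygous 5.64% and 6.49% (25.5 points, edgeR adjusted p = 0.0137), while Tdg heterozygous adenoma 1 had 19.96% and the other two 6.84% and 4.83%. Both heterozygous genotypes overlapped at chr6:102513773, and Tdg heterozygous adenoma 1 came close to the lowest Tet1 null adenoma.

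The 1 site lower in Tet1 null than in double heterozygous adenomas was chr2:127308217. Double heterozygous adenoma 2 had 11.89% there, adenoma 1 had 1.07%, and the Tet1 null adenomas had 0.48%, 0.42% and 0.41% (a difference of -6.04 points, edgeR adjusted p = 0.0301). Control adenoma 2 had 4.28%. Without double heterozygous adenoma 2 the edgeR adjusted p was 0.910, so the call rests on that library, and with limma it was 0.523.

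The double heterozygous and Tdg heterozygous genotypes share 1 mutated Tdg allele and differ by 1 Tet1 allele. No site passed the test between them in either direction, and none of all tested sites did (0% of them). At an unadjusted p under 0.05 edgeR found 117 of the 6297 sites higher in double heterozygous adenomas and 58 lower. Over all 14983 tested sites it found 278 higher and 119 lower. With limma 0 were called. Separated values with double heterozygous higher were found at 344 tested sites (5.46%, against 7.47% of all tested sites) and with Tdg heterozygous higher at 239 (3.80%, against 3.83%). With 2 adenomas against 3, the count moved with single libraries: edgeR called 6 sites without double heterozygous adenoma 1, 5 of them higher in double heterozygous, 2 without double heterozygous adenoma 2 and 1 without Tdg heterozygous adenoma 3. A p that misses the threshold does not show that the genotypes are alike.

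The sites with the smallest p in this comparison, none past the threshold, were mostly high in 1 double heterozygous adenoma. At chr9:20673421 adenoma 2 had 10.03% and adenoma 1 had 0.31%, against 0.07%, 0.07% and 0.66% in Tdg heterozygous adenomas (edgeR adjusted p = 0.716). At chr17:56264093 they had 26.47% and 9.19%, against 2.46%, 1.82% and 7.17%, so both exceeded all 3 (edgeR adjusted p = 0.878). The Tet1 null adenomas had 5.25%, 12.54% and 16.25% there. At chr17:34256686 only double heterozygous adenoma 1 was above 0 among these 5 adenomas, at 1.38% (edgeR adjusted p = 0.773). The same edgeR adjusted p, 0.773, was found at chr2:127308217, and chr6:108015332 had 0.904, with 5.32% and 1.76% in double heterozygous against 0%, 0% and 1.42% in Tdg heterozygous adenomas. On the lower side, chr7:51697830, chr2:38212408, chr4:124337225, chr7:120352104 and chr14:84845763 all had an edgeR adjusted p of 1. At chr4:124337225 the Tdg heterozygous adenomas had 3.30%, 3.24% and 5.39% and double heterozygous adenomas 1 and 2 had 0.32% and 1.21%, without overlap.

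Comparisons with control are given as a description, because the control values chose the sites, and all of them share the same 3 control adenomas. edgeR called 156 of the 6297 tested sites higher in Tet1 null adenomas (2.48%, beside 1.76% of all tested sites) and 0 lower, beside 0.0133%. At an unadjusted p under 0.05 it found 628 higher and 30 lower, beside 1261 and 64 of all 14983 tested sites. With limma 0 were called lower. Neither heterozygous genotype had a called site against control (0 in each), beside 0% of all tested sites in each direction, and limma called 0 in both. At an unadjusted p under 0.05 edgeR found 159 sites in the Tdg heterozygous comparison and 209 in the double heterozygous. Over all 14983 tested sites the numbers were 446 and 555. The largest differences of Tet1 null from control were 78.7 points at chr16:35660659, 70.5 at chr16:35660504, 47.4 at chr14:109311177, 38.3 at chr14:75856491 and 37.6 at chr8:114433829. The count for Tet1 null adenomas was 96, 90 or 80 without control adenoma 1, 2 or 3, 93 without Tet1 null adenoma 2 and 77 without Tet1 null adenoma 3.

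The calls between Tet1 null and Tdg heterozygous adenomas were not spread evenly over the sites. With 1 neighbour within 500 bp, 111 of 3946 tested sites were called higher in Tet1 null adenomas (2.81%), and with 2 neighbours 29 of 2351 (1.23%). For comparison, sites also below 5% in control were called at 12 of 2177 (0.551%) with 3 or more neighbours and at 2 of 86 (2.33%) with none. The mean level in Tet1 null adenomas was 0.922% ± 0.126 in the sites with 1 or 2 neighbours, 0.357% ± 0.0353 with 3 or more and 0.607% ± 0.123 with none (SD, n = 3 each). In control it was 0.417% ± 0.0216, 0.203% ± 0.0219 and 0.315% ± 0.0261 in the same order. The share of sites at 15% or more in Tet1 null adenomas was 0.768% with 1 or 2 neighbours and 0.0722% with 3 or more. The differences between these shares were not tested, because the sites were chosen by level.

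The call share also moved with the small level that remained in control. Among tested sites with no methylation in control 11 of 1869 were called (0.589%), and 19 of 2484 (0.765%) with a control mean up to 0.25%. The share was 15 of 517 (2.90%) from 0.25 to 0.5%, 15 of 425 (3.53%) from 0.5 to 1%, 32 of 451 (7.10%) from 1 to 2% and 48 of 551 (8.71%) from 2 to 5%. The sites at 0 in control entered the test only through methylated reads in a mutant, so their share is not that of all such sites. By distance to the nearest listed site the share was 5 of 497 (1.01%) up to 100 bp, 30 of 1324 (2.27%) from 100 to 200, 43 of 2069 (2.08%) from 200 to 300, 32 of 1481 (2.16%) from 300 to 400 and 30 of 926 (3.24%) from 400 to 500 bp. By the lowest depth among the 11 adenomas it was 2.39% from 100 to 200 reads, 2.56% from 200 to 400, 2.28% from 400 to 800 and 0.962% above 800 reads, so the called sites were not mainly the shallow ones.

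**Figure D4:**
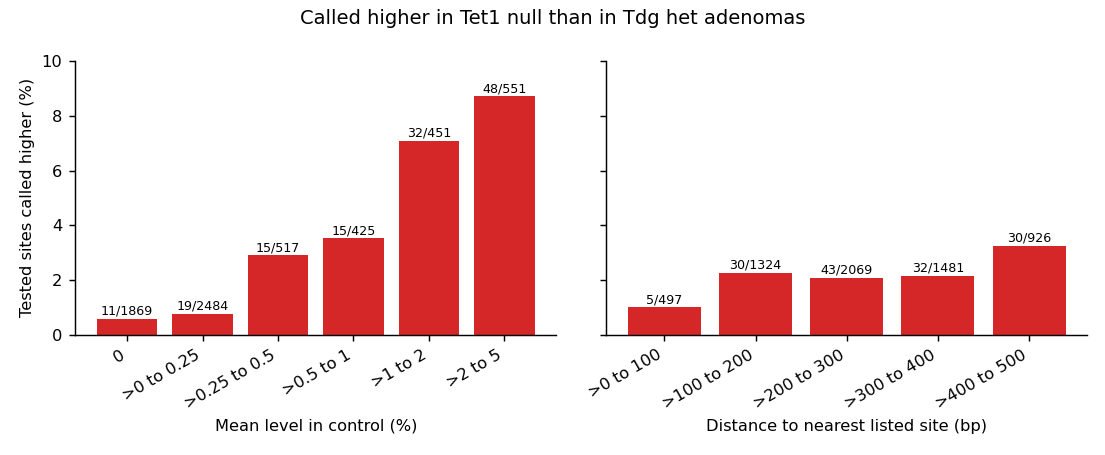
Share (%) of tested sites called higher in Tet1 null than in Tdg heterozygous adenomas, by mean level in control (left, %) and by distance to the nearest listed CCCGGG site (right, bp). Numbers above the bars are called over tested sites, and the share is 0.589% at a control level of 0 and 8.71% from 2 to 5%.

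By chromosome the share called ran from 1 of 352 (0.284%) on chromosome 9 to 16 of 299 (5.35%) on chromosome 6. Chromosome 15 followed with 10 of 278 (3.60%). Chromosome 10, which carries both Tet1 and Tdg, had 8 of 345 (2.32%), near the 2.22% of all tested sites of the class. Every autosome held at least 1 called site.

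A site's nearest neighbour could be methylated in control even though the site itself was not. The nearest site was also below 5% in control for 6155 of the sites, at 5 to 20% for 257, at 20 to 80% for 117 and at 80% or more for 8, and it had fewer than 100 reads for 1011. Sites beside an unmethylated neighbour were called at 106 of 5136 (2.06%). Sites beside a neighbour at 5% or more were called at 28 of 380 (7.37%). Their own control level also differed, and within the sites at 0.5 to 5% in control the shares were 69 of 1019 (6.77%) and 24 of 277 (8.66%). Within those up to 0.5% they were 37 of 4117 (0.899%) and 4 of 103 (3.88%), the last from few sites.

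Neighbouring sites moved together in many but not all cases. Of the 140 called sites, 133 had a tested nearest site, which was itself called in 70 (52.6%) and higher in Tet1 null adenomas in 126. These counts are per site, so called sites nearest to each other enter more than once. The 140 sites lay in 111 runs. Among the 4673 tested sites not called whose nearest site was tested, the nearest was called in 64 (1.37%). The median difference was 7.54 points at the called site and 4.71 points at its nearest. In the 63 cases where the nearest was not called, it was 7.54 and 1.17 points. The call favours a large difference at the called site, and taking neighbours that were not called favours a small one there. These medians therefore do not measure a decline between neighbouring sites. Over 2805 runs of sites no more than 500 bp apart, with 1 pair from each, the differences at a site and its nearest had a Pearson correlation of 0.526 and a Spearman correlation of 0.336 across pairs. The pairs share the same libraries, and the reads of adjacent sites can come from the same restriction fragment, so this is a description.

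**Figure D5:**
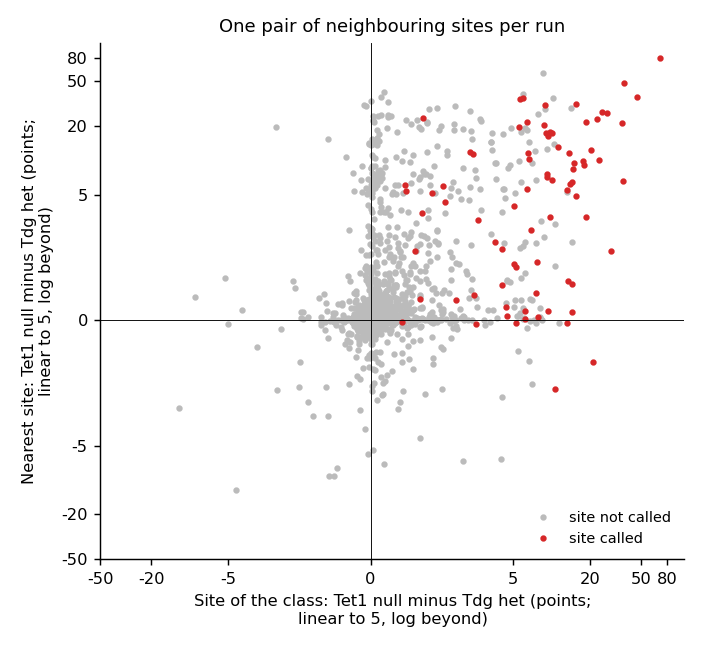
Difference between Tet1 null and Tdg heterozygous adenomas (percentage points of the adjusted level) at a site of the class (horizontal) and at its nearest tested CCCGGG site (vertical), with 1 pair for each of 2805 runs. Both axes are linear to 5 points and logarithmic beyond, red points are sites called higher in Tet1 null adenomas, and red points lie both far above 0 and close to 0 on the vertical axis.

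The 140 sites fell in 111 of the 3895 runs that hold sites of the class, and 28 runs held 2 or 3 of them. The run with the highest mean difference was chr16:35660144-35660659, with 75.8 points over its 2 called sites of the class. Its first site, at position 35660144, is outside the class with a control mean of 11.2%, and it rose as well, to 96.16%, 74.52% and 83.14% in the Tet1 null adenomas against 10.11%, 10.67% and 10.19% in the Tdg heterozygous. All 3 sites of that run were thus methylated in most reads of the Tet1 null adenomas.

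On chromosome 14 the run chr14:109311177-109312055 held 4 tested sites, 2 of the class with a mean difference of 41.9 points. The rise became smaller and rested more on Tet1 null adenoma 1 along the run. The third site, at position 109311560 and outside the class because it has 3 neighbours, had 55.46%, 9% and 8.64% in the Tet1 null adenomas. At position 109312055, outside the class, the Tet1 null adenomas had 63.78%, 15.56% and 3.51%, control adenoma 1 had 21.85%, and edgeR gave an adjusted p of 0.306.

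Other runs showed a steep step between neighbours. In the run chr11:113927258-113927578 the first site averaged 29.8% in Tet1 null adenomas and the second, 320 bp away, had 1.97%, 2.92% and 4.36%, against 0.37%, 0.26% and 0.35% in the Tdg heterozygous (edgeR adjusted p = 1.31e-03). Both were called, at very different levels. In chr8:114433829-114434214 the first site averaged 40.0% in Tet1 null adenomas, the second 7.15% and the third 5.28%, and the last was not called (edgeR adjusted p = 0.0888).

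In 3 further runs both sites were called, with the first above the second in the Tet1 null mean. In chr6:82988664-82988919 the Tet1 null adenomas had 9.79%, 22.25% and 40.43% at the first site and 8.57%, 14.27% and 24.21% at the second, with the same order of adenomas. In chr7:107327687-107327922 they had 6.96%, 14.94% and 33.26%, and then 6.80%, 10.48% and 19.35%, again in the same order. In chr1:121316246-121316621 the order differed, with 33.58%, 22.61% and 20.82% at the first site and 7.36%, 18.48% and 8.54% at the second.

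The run chr1:136981222-136981972 crosses from a methylated to an unmethylated stretch. Its first site was at 76.8% in control and was not called, with 69.84%, 72.94% and 72.18% in the Tet1 null adenomas (edgeR adjusted p = 1 against Tdg heterozygous). The 2 sites of the class at its other end had control means of 3.83% and 4.93%. They had 10.87%, 20.97% and 18.10% and then 10.68%, 30.14% and 22.06% in the Tet1 null adenomas, with a mean difference of 15.2 points from the Tdg heterozygous. Double heterozygous adenoma 1 was at 9.59% and 12.86% there, above the control and Tdg heterozygous values. At the second of these sites it was also above the lowest Tet1 null adenoma.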

How the data were processed

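The deposited tables hold counts of methylated, unmethylated and total reads at each CCCGGG site and percent values, a raw level and a level adjusted by the authors with spiked standards, per the file headers and the labels' protocols. Trim Galore and Bowtie2 with mm9 are named per the submitters' processing notes, with no version given there. The headers also give mm9, while the protocol text names a rat build. Sites under the 100 reads that the labels set as a minimum are listed too.

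The sites, lists and tests were chosen with earlier results of these data known. Of 16868 autosomal sites with at least 100 reads in 11 adenomas, 1885 gave reads of a single state and were not tested, and the 14983 others were tested with the quasi-likelihood test of edgeR 4.0.16 (R 4.3.3). Reads of both states entered the model, in which each adenoma has its own depth term and each genotype its own term for methylated reads. Dispersion had no trend, and tests were two-sided, Benjamini-Hochberg adjusted over all tested sites, threshold 0.05. A p-value over adenomas was computed for no mean over the sites. Every difference is one of adjusted levels, in percentage points. The test was run on simulated counts first. As alternatives the depth minimum was set to 50 or 300 reads, and limma 3.58.1 was run on the log2 ratio of methylated to unmethylated reads (2 added to both). The fit was also repeated with all 12 adenomas, with replicate number as a block, and leaving out each adenoma. A further fit had sex as a covariate (male at 100 or more Y chromosome reads). For a control limit of 2%, windows of 250 and 1000 bp and 1 neighbour only, the calls of the main fit were counted again without a new fit.

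Named were, per contrast between mutants, up to 12 called sites with the largest difference in each direction whose values did not overlap, or the 5 with the smallest p where none passed. Also named were the 8 runs with 2 or more called sites and the highest mean difference, the 4 sites on each side of the control limit, and the 5 largest called differences from control. Replicates of a genotype were compared first, by a chi-square test per site that takes reads as independent. At p under 0.05 in it, 24.2 to 44.7% of sites differed between adenomas, so none had the same counts as another. Reads need not be independent, so the comparison cannot tell separate adenomas from repeat libraries of the same one. Intervals are 95% exact (Clopper-Pearson) and cover counting error only, since the labels name no molecular identifiers. Figures were drawn with matplotlib 3.10.9.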

Additional observations from a re-analysis of the deposited data

Results flagged for a closer look

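At a small share of sites the mutant genotypes had different effects relative to the same 3 controls, by the test of the difference itself. edgeR called 140 sites higher in Tet1 null than in Tdg heterozygous adenomas (2.22% of those tested, against 1.78% of all tested sites). It called 60 higher in Tet1 null than in double heterozygous adenomas (0.953%, against 0.641%). Whether the class differs from all tested sites in these shares was not tested. These comparisons are described above with their values, and both share the Tet1 null adenomas.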

How the results depend on the processing

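The 140 sites called between Tet1 null and Tdg heterozygous adenomas were 92 with a control limit of 2% and 65 with neighbours counted within 250 bp, both of which choose fewer sites, and 84 to 182 when each adenoma was left out. With limma the count was 154, of which 116 were among the 140. The 61 called between Tet1 null and double heterozygous adenomas were 31 with limma, 38 with the sex covariate, 37 with the 2% limit, 30 within 250 bp and 16 to 58 when each adenoma was left out. Between double heterozygous and Tdg heterozygous adenomas 0 to 6 were called when each was left out, and at chr17:34256686 the direction reversed without double heterozygous adenoma 1 (edgeR adjusted p = 1). The 156 called between Tet1 null adenomas and control were 82 within 250 bp and 77 to 202 when each was left out. For Tdg heterozygous adenomas and control the count was 0 to 1 when each was left out. For double heterozygous adenomas and control it was 1 at a depth minimum of 300 reads, 1 with all 12 adenomas and 0 to 4 when each was left out. Causes were not tested. Where 1 double heterozygous adenoma was left, it was assumed to vary like the other groups.

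With the replicate number as a block the count was 105 for Tet1 null against Tdg heterozygous, 27 against double heterozygous and 94 against control. The numbers did not pair the samples: deviations of same-numbered adenomas correlated at -0.452 to 0.291, over 0.1 in 3 of 15 pairs, and 2 of 11 adenomas correlated best with their own number.

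The Tdg heterozygous mean level was 0.458% at a minimum of 300 reads. With a limit of 10% in place of 15%, the share of sites reaching it was 0.273% in left-out controls, 0.300% in Tdg heterozygous, 0.615% in double heterozygous and 1.72% in Tet1 null adenomas. At 25% it was 0.310% in Tet1 null and 0.0132% in double heterozygous adenomas, below the 0.0397% of left-out controls. Over the named sites that passed and all alternatives, the call against double heterozygous adenomas was lost 30 times and kept 186 times, and the call against Tdg heterozygous adenomas was lost 1 time and kept 199 times. Between double heterozygous and Tdg heterozygous adenomas a call was gained 4 times, among them chr17:34256686 without double heterozygous adenoma 2 (edgeR adjusted p = 0.0301). Depth limits the shallow sites most: at 100 reads, 1 methylated read is 1% of them.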

Other observations

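Some sites of the class were high in 1 adenoma alone, at 15% or more there and below 5% in the 10 other adenomas of the test. Tet1 null adenomas 1 and 3 had 3 such sites each, Tdg heterozygous adenomas 2 and 3 had 1 each, and Tet1 null adenoma 2, Tdg heterozygous adenoma 1 and double heterozygous adenomas 1 and 2 had 0. Tet1 null adenomas 1, 2 and 3 had 48, 65 and 61 sites at 15% or more, so most of these stood at 5% or more in another adenoma too. At 15% or more in all 3 Tet1 null adenomas stood 17 sites, in 2 of them 22 and in 1 of them 79, while in the Tdg heterozygous adenomas the numbers were 0, 1 and 24.

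The 2 highest solitary sites were both on chromosome 11 in Tet1 null adenoma 1. At chr11:79787988 it had 324 methylated reads of 1068, a raw level of 30.3% (95% exact interval 27.6 to 33.2), and the highest of the 10 others was 1.11%. Its nearest site stood at 28.96% in the same adenoma. At chr11:82203549 it had 350 of 1160, 30.2% (27.5 to 32.9), but there the nearest site, read 1869 times, stood at 0.79%. In Tdg heterozygous adenoma 3 the site chr11:96181726 had 212 of 1090, 19.4% (17.1 to 21.9), beside a nearest site at 73.1%.

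The highest site in an adenoma outside the Tet1 null genotype was chr18:86565336 in Tdg heterozygous adenoma 2, at 57.38% from 1805 reads. The other Tdg heterozygous adenomas had 2.17% and 3.04% there, and Tet1 null adenoma 2 had 21.04%. In double heterozygous adenoma 2 the highest was chr15:80118702, at 36.41% from 173 reads, with 28.24%, 25.01% and 13.34% in the Tet1 null adenomas. Of the 16 sites at 15% or more in double heterozygous adenoma 2, 14 were at 5% or more in some Tet1 null adenoma and 10 at 15% or more. Of the 19 in Tdg heterozygous adenoma 2, 16 and 11 were. Of all 7548 sites, 7430 were at 15% or more in 0 Tet1 null adenomas. The Tet1 null mean also moved with the control level, from 0.0495% at a control mean of 0 to 7.03% from 2 to 5%. The counts were not matched for control level, and a shared set of sites was not tested. The highest level in a control adenoma was 14.13%, at chr1:74759769 in control adenoma 1, where the other 2 controls had 0.09% and 0.62%.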
